A study of Homo sapiens with 12 samples.

Results

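Transcripts of 10 genes that answer to or restrain extracellular signal-regulated kinase (ERK) were followed over 4 time points in HepG2 cells: the dual-specificity phosphatases DUSP1, DUSP4, DUSP5 and DUSP6, the Sprouty genes SPRY2 and SPRY4, the Sprouty-related genes SPRED1 and SPRED2, the receptor gene EPHA2 and the transcription factor gene ETV5. They were found by symbol among 60612 gene entries of the deposited count table, and all 10 were among the 17779 genes with enough counts to be tested. The 10 were proposed with results of these same libraries in view, and which values led to the choice is not recorded. Their levels and tests over the 4 times are therefore given as a description, and nothing is read from how many of them passed a test.

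HepG2 is an established human liver cancer line. Its cells were harvested before exposure (0 min) or after 10, 30 or 360 min in 0.001 µM 2,4-D, a synthetic auxin used as a herbicide, with 3 biological replicates at each time. The 12 libraries had the same dose where exposed, and no added genotype or transgene is labelled. The 12 include untreated cells at 0 min only, without time-matched untreated libraries, so that exposure and elapsed time cannot be told apart. Cells were detached with trypsin and RNA was selected on poly(dT) beads. Library totals ran from 29.8 to 83.5 in units of 1e6 counts. The 10 min libraries had the lowest totals (29.8, 30.5 and 31.5), beside 33.4 to 83.5 in the others. Over all libraries 3 counts, used as a floor, stood for 0.0359 to 0.101 counts per 1e6 (CPM). The 8 hepatocyte markers were present, with ALB at 7870 to 9520 CPM and HNF4A at 260 to 342 CPM, while COL1A2, DCN and PTPRC, which mark fibroblasts and leukocytes, had 0 counts in all 12 libraries. Other markers on the non-hepatocyte lists were present, with CD68 (leukocyte list) at 48.6 to 64.6 CPM, PDGFRB (fibroblast list) at 1.9 to 3.58 CPM and PECAM1 (endothelial list) at 0.957 to 1.75 CPM. The mitochondrial share of the counts left a gap between 5 libraries at 2.52 to 2.74% and 7 at 3.55 to 4.39%, and all of the 10 min libraries lay on the higher side.

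Growth factor receptors activate RAS, RAF, MEK and then ERK, and ERK switches on genes whose products shut the same cascade down. DUSP enzymes remove the activating phosphates from ERK and its relatives JNK and p38, whereas Sprouty and SPRED proteins act upstream, between the receptors and RAF. In liver cells the cascade carries signals from epidermal growth factor, hepatocyte growth factor and fibroblast growth factors, and transcript levels of DUSP6, SPRY4, ETV4 and ETV5 are widely used to read ERK output. The repressor CIC sits on several of these genes and is released when ERK phosphorylates it.

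RefSeq promoter windows (GRCh38.p14, 250 bases before to 50 after a start site) were available for 7 of the 10 genes, with 10 windows in all; DUSP4, DUSP5 and ETV5 had none. Each window was searched on both strands for the CIC octamers TGAATGAA, TGAATGGA, TCAATGAA and TCAATGGA, the cyclic AMP response element TGACGTCA, the AP-1 site TGANTCA, the ETS core CCGGAA and the CArG box bound by serum response factor. The 3 windows shown belong to genes called lower at 30 min and hold a CIC octamer or a cyclic AMP response element, printed in capitals, 5′ to 3′ on the gene's own strand.
DUSP6 promoter, chr12:89352452-89352751, minus strand: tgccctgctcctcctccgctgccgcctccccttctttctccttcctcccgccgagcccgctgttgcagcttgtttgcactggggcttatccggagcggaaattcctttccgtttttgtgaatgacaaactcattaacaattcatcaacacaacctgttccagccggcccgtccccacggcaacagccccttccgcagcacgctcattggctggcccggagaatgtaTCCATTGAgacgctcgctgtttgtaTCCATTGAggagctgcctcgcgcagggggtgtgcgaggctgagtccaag
EPHA2 promoter, chr1:16156020-16156319, minus strand: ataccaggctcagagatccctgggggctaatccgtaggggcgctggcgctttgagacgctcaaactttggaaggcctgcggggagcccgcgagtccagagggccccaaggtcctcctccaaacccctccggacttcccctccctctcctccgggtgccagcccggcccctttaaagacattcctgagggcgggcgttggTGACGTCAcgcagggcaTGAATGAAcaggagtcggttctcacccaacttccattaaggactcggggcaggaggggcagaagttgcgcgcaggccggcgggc
DUSP1 promoter, chr5:172771146-172771445, minus strand: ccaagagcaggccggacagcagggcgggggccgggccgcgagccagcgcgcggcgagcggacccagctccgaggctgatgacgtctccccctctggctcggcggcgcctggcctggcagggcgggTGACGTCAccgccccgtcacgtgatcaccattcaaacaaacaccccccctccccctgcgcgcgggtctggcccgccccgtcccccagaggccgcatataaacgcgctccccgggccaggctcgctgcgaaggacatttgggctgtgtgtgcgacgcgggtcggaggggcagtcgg
DUSP6 held the CIC octamer at 2 places, in both cases on the opposite strand, starting at positions -24 and 2 from the start site. EPHA2 held it at position -34, after a cyclic AMP response element at position -51, and DUSP1 held that element at position -125. Of 35116 RefSeq promoter windows, 3.77% contained a CIC octamer and 1.85% the cyclic AMP response element. SPRY2 had an ETS core (17.2% of windows) at position -142 of 1 of its 3 windows and SPRED2 had the AP-1 site (7.71% of windows) at positions -6 and 35 of 1 of its 2, while none of the searched letters were found in the windows of SPRY4 and SPRED1, and no window of the 7 genes held the CArG box (1.29% of windows). A match of letters is a description of the window, not a site shown to be bound.

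Transcripts of DUSP6, SPRY4 and EPHA2 went through a trough at 30 min and were higher again at 360 min, when DUSP6 and EPHA2 were not called against 0 min and SPRY4 was still slightly lower. SPRY2 was lower at both 30 and 360 min, DUSP1 was lower at 30 and 360 min but from untreated replicates that lay far apart, ETV5 was slightly lower at 360 min, and SPRED1, SPRED2, DUSP4 and DUSP5 were not called at any time. A gene was called at an adjusted p under 0.05 in edgeR's quasi-likelihood test, with Benjamini-Hochberg adjustment over all 17779 genes. At 10 min against 0 min, 0 of the 10 were called, where 0.0169% of all tested genes were; 4 of them, all with lower levels, had an unadjusted p under 0.05, as had 1941 of the 17779 tested genes, and DESeq2 called 1, DUSP1, among 174 genes called in all. At 30 min against 0 min, 5 were lower and 0 higher, where 0.765% of all genes were called and 0.585% were called lower. At 360 min against 0 min, 4 were lower and 0 higher, against 18.1% of all genes called and 9.19% called lower. From 10 to 30 min, 3 were lower at the later time (0.574% of all genes called, 0.411% lower), and from 30 to 360 min, 3 were higher and 1 lower at the later time (22.7% of all genes called, 11.4% higher and 11.3% lower). The median log2 fold change of the 10 genes was -0.13, -0.44 and -0.14 at 10, 30 and 360 min against 0 min, beside medians within 0.00333 of 0 for all tested genes. The libraries of the groups did not overlap for 4, 5 and 4 of the 10 genes at 10, 30 and 360 min against 0 min, beside 15.5%, 14.5% and 35.6% of all tested genes. The comparisons with 0 min share the same 3 untreated libraries.

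**Figure D1:**
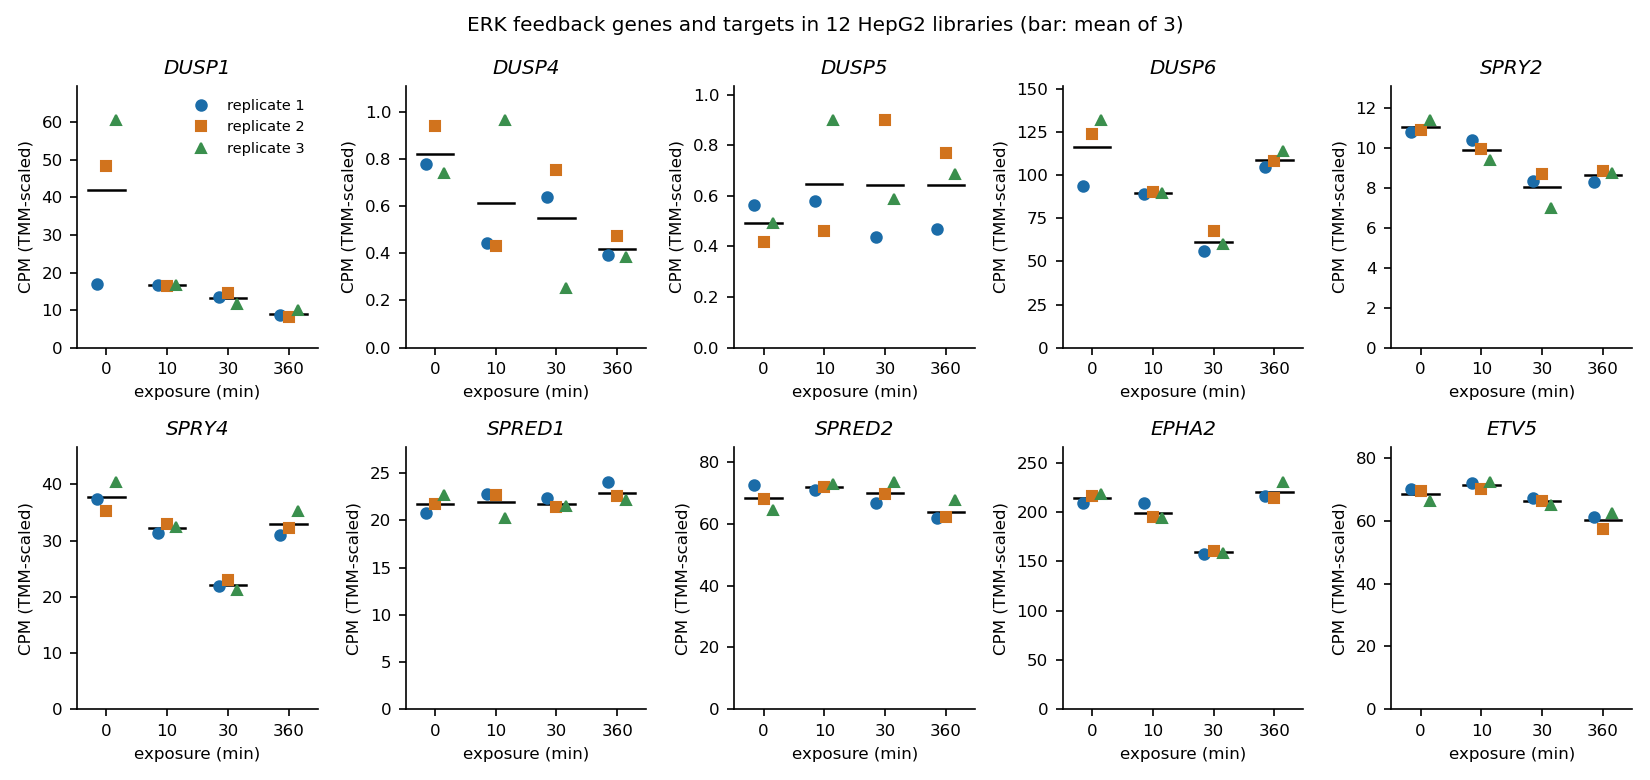
TMM-scaled CPM of each of the 10 genes (linear axes from 0) against minutes of exposure; each point is 1 library, its shape gives the replicate number and the bar is the mean of 3. DUSP6, SPRY4 and EPHA2 are lowest in all 3 libraries at 30 min, and the 0 min replicates of DUSP1 span 16.9 to 60.6 CPM.

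DUSP6 encodes a cytoplasmic phosphatase that acts mainly on ERK. It lies at chr12:89347232-89353271 on the minus strand (GRCh38, GENCODE 29). Its level was 93.9, 124 and 132 CPM in the 3 replicates at 0 min, 89, 90.5 and 89.6 CPM at 10 min, 56.2, 67.4 and 60.3 CPM at 30 min, and 105, 108 and 114 CPM at 360 min. Every 30 min library was below every library of the other times, and the 360 min libraries fell inside the 0 min range. The fold change at 30 min against 0 min was -0.93 on the log2 scale (SE 0.1, adjusted p = 5.74e-04), that is 61.3 ± 5.7 CPM at 30 min against 117 ± 20 CPM at 0 min (SD, n = 3 each). At 360 min the level stood 0.83 above that at 30 min (SE 0.1, adjusted p = 8.49e-05) and differed from 0 min by -0.10 (SE 0.0985, adjusted p = 0.552). Without 0 min replicate 1, the lowest of the untreated libraries, DUSP6 passed the threshold at 360 min (-0.24, adjusted p = 0.021) and at 10 min (-0.51, adjusted p = 0.00497; -0.38 and 0.209 with all libraries), and with that replicate alone it was 0.22 above 0 min at 360 min (adjusted p = 0.127). The step from 10 to 30 min was -0.55 (adjusted p = 0.0318), a call that did not survive the removal of any 1 of the 10 min libraries or of 30 min replicate 1 or 3 (adjusted p up to 0.133).

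The reads of DUSP6 could not be separated from those of a gene on the other strand. The use of strand in counting is not given in the sources used here. The antisense gene AC024909.1 (named AC024909.2 in GENCODE 29) lies at chr12:89351015-89353271 on the plus strand and shares 1875 exon bases with DUSP6. These make up 40.5% of the exon bases of DUSP6 and 83.1% of those of AC024909.1. Its level was 12.6, 18 and 21.3 CPM at 0 min, 11.8, 12.6 and 12.7 CPM at 10 min, 7.08, 9.02 and 8.39 CPM at 30 min, and 14.4, 14.6 and 18.6 CPM at 360 min, so that it had the same trough as DUSP6 (log2 fold change at 30 min against 0 min -1.09, adjusted p = 0.00664, against 0.221 with 0 min replicate 1 as the lone untreated library).

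DUSP1 encodes a nuclear phosphatase of p38, JNK and ERK and is a classic immediate-early gene. It lies at chr5:172768090-172771195 on the minus strand. Its level was 16.9, 48.3 and 60.6 CPM at 0 min, 16.7, 16.5 and 16.6 CPM at 10 min, 13.4, 14.6 and 11.7 CPM at 30 min, and 8.57, 8.26 and 10.1 CPM at 360 min. The ranges of successive times did not overlap, but 0 min replicate 1 was above the highest 10 min library by a margin far smaller than its distance from the other 0 min replicates. The later steps were not called. DUSP1 changed by -0.32 from 10 to 30 min (SE 0.321, adjusted p = 0.748). From 30 to 360 min it changed by -0.56 (SE 0.323, adjusted p = 0.244), which passed with only the groups compared (0.00595). In bulk RNA, fewer cells with a transcript and less of it per cell cannot be told apart. At 360 min against 0 min DUSP1 had a log2 fold change of -2.23 (SE 0.323, adjusted p = 4.60e-04), and at 30 min of -1.67 (SE 0.313, adjusted p = 0.0265). At 10 min the fold change was -1.34 (SE 0.316, adjusted p = 0.165).

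These values of DUSP1 depended on which untreated libraries were used. With 0 min replicate 1 as the lone untreated library, assumed to vary like the other groups, the log2 fold changes were -0.02 at 10 min (adjusted p = 0.986), -0.35 at 30 min (adjusted p = 0.467) and -0.91 at 360 min (adjusted p = 0.00208). Without that replicate the change at 10 min was -1.71 (adjusted p = 1.00e-05). The call at 30 min was lost in 9 of 13 alternatives, including those without 0 min replicate 2 (adjusted p = 0.112), 0 min replicate 3 (0.119), or 30 min replicate 1 (0.114), 2 (0.0938) or 3 (0.133), and with a term for the mitochondrial side (0.0749). The call at 360 min held in all 13, with an adjusted p of at most 0.00632.

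The immediate-early genes FOS and EGR1 separated the untreated libraries in the same way, whereas IER3 did not (143, 134 and 155 CPM in 0 min replicates 1, 2 and 3). FOS, a subunit of AP-1, had 14.1, 106 and 136 CPM in 0 min replicates 1, 2 and 3, and EGR1, a zinc-finger factor, had 14.8, 34.2 and 45.8 CPM. Relative to the 10 min mean, DUSP1 stood at 1.02, 2.91 and 3.65 times in these 3 libraries and DUSP6 at 1.05, 1.38 and 1.47 times. Replicate 1 was on the higher mitochondrial side (4.39%) and replicates 2 and 3 on the lower (2.61 and 2.66%). Within 30 and 360 min the sides held single libraries of both kinds, and DUSP1 had there 13.4 CPM on the lower side against 14.6 and 11.7 CPM on the higher at 30 min, and 8.57 and 8.26 CPM on the lower side against 10.1 CPM on the higher at 360 min. The part of the mitochondrial side or of handling in the spread at 0 min was not tested.

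**Figure D2:**
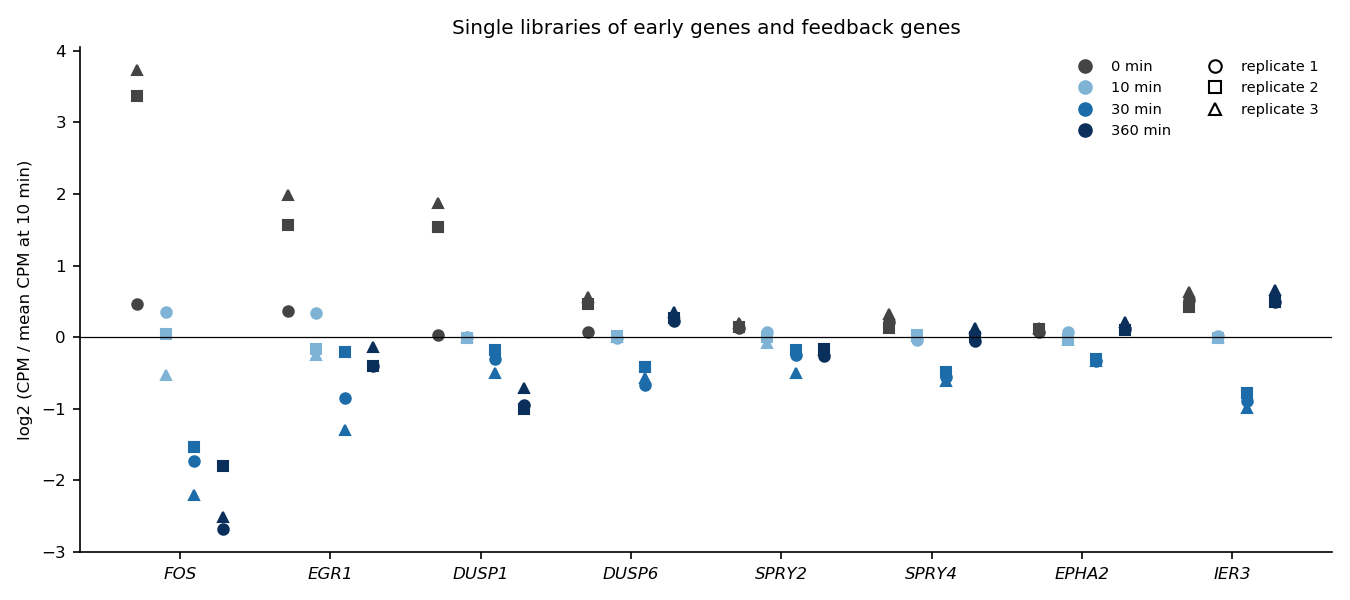
Level of each library relative to the mean of the 3 libraries at 10 min (log2 axis, in CPM) for FOS, EGR1, DUSP1, DUSP6, SPRY2, SPRY4, EPHA2 and IER3; colour gives the time and shape the replicate. For DUSP1, 0 min replicate 1 is 1.02 times the 10 min mean and replicates 2 and 3 are 2.91 and 3.65 times, while the 3 untreated libraries of SPRY4, EPHA2 and IER3 lie close together.

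DUSP4 and DUSP5, nuclear phosphatases with a preference for ERK in the case of DUSP5, had few counts. DUSP4, on chromosome 8, had 0.777, 0.94 and 0.741 CPM at 0 min, 0.443, 0.429 and 0.964 CPM at 10 min, 0.638, 0.754 and 0.252 CPM at 30 min, and 0.394, 0.474 and 0.383 CPM at 360 min, from 9 to 63 counts per library. The 360 min libraries were all below the 0 min libraries, with a log2 fold change of -0.998 (SE 0.358) that missed the threshold (adjusted p = 0.0739) and passed it when only those groups were fitted (adjusted p = 0.0142). DUSP5, at chr10:110497838-110511544, ranged from 0.418 to 0.899 CPM over all libraries (14 to 62 counts), its groups overlapped, and its log2 fold changes against 0 min were 0.42, 0.40 and 0.37 at 10, 30 and 360 min, each with an SE of at least 0.318. Neither gene was called against 0 min in the fit of all 12 libraries.

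SPRY4, an inhibitor of RAS activation induced by growth factors, was lower at 30 min than at any other time. It lies at chr5:142310427-142326455 on the minus strand. Its level was 37.4, 35.3 and 40.5 CPM at 0 min, 31.4, 32.9 and 32.5 CPM at 10 min, 22, 23 and 21.2 CPM at 30 min, and 31, 32.3 and 35.3 CPM at 360 min. All 30 min libraries were below all others, the 10 min libraries were below the 0 min libraries, and the 360 min range touched that of 0 min only at its top. SPRY4 was 22.1 ± 0.89 CPM at 30 min against 37.7 ± 2.6 CPM at 0 min (SD, n = 3 each), a log2 fold change of -0.77 (SE 0.06, adjusted p = 3.37e-05) that was called in 13 of 13 alternatives. It was 0.55 lower at 30 min than at 10 min (adjusted p = 0.00115) and 0.57 higher at 360 min than at 30 min (adjusted p = 2.62e-05), and both calls held in 12 of 12. At 360 min it was still 0.20 below 0 min (SE 0.0593, adjusted p = 0.035), a call lost in 7 of 13 alternatives with an adjusted p of up to 0.155, for instance without 0 min replicate 1 (0.0516).

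SPRY2, the other Sprouty gene of the group, lies at chr13:80335976-80340951 on the minus strand. It had 10.8, 10.9 and 11.4 CPM at 0 min, 10.4, 9.94 and 9.38 CPM at 10 min, 8.37, 8.71 and 7.02 CPM at 30 min, and 8.28, 8.86 and 8.74 CPM at 360 min. The 30 and 360 min libraries overlapped each other and were all below the 0 and 10 min libraries. SPRY2 was lower at 360 min than at 0 min by a log2 fold change of -0.36 (SE 0.0844, adjusted p = 0.0101), and lower at 30 min by -0.45 (SE 0.0842, adjusted p = 0.0252). The 360 min call was lost with 0 min replicate 1 as the lone untreated library (-0.33, adjusted p = 0.139). The 30 min call was lost in 7 of 13 alternatives, among them those without 0 min replicate 2 (adjusted p = 0.0887) or 3 (0.121) and without 30 min replicate 1 (0.0663) or 3 (0.0895). Unlike SPRY4, SPRY2 did not pass the test between 360 and 30 min (0.10, SE 0.0847, adjusted p = 0.469).

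SPRED1 and SPRED2, membrane-bound inhibitors of RAS and RAF activation, stayed within narrow bounds. SPRED1 (chr15:38252326-38357249) averaged 21.8 ± 0.96, 21.9 ± 1.4, 21.8 ± 0.53 and 22.9 ± 1 CPM at 0, 10, 30 and 360 min (SD, n = 3 each). SPRED2 (chr2:65310851-65432637) averaged 68.4 ± 4.1, 71.8 ± 0.96, 70.1 ± 3.5 and 63.9 ± 3.3 CPM. Their largest log2 fold change against 0 min was -0.10 (SPRED2 at 360 min, SE 0.0512, adjusted p = 0.226), and their neighbouring groups overlapped at every step of the order of levels. SPRED2 at 360 min against 30 min (-0.13, SE 0.0511, adjusted p = 0.086) passed the threshold without 30 min replicate 1 (0.0479) or 360 min replicate 3 (0.0377).

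EPHA2 encodes a receptor tyrosine kinase for ephrin-A ligands whose transcription is raised by RAS and ERK signalling. It lies at chr1:16124337-16156087 on the minus strand and was the most abundant of the 10 genes. Its level was 209, 216 and 218 CPM at 0 min, 209, 195 and 194 CPM at 10 min, 158, 161 and 159 CPM at 30 min, and 216, 214 and 231 CPM at 360 min. The 3 libraries at 30 min lay within 3 CPM of each other and below all others, and those of 0 and 360 min overlapped. EPHA2 was lower at 30 min than at 0 min by a log2 fold change of -0.43 (SE 0.0387, adjusted p = 1.32e-04) and lower than at 10 min by -0.32 (SE 0.0388, adjusted p = 0.00182). At 360 min it was 0.47 above 30 min (SE 0.0387, adjusted p = 4.28e-06) and 0.04 from 0 min (SE 0.0385, adjusted p = 0.541). These calls held in each alternative tried, with an adjusted p of at most 0.0159.

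ETV5 encodes an ETS-family transcription factor of the PEA3 group, whose members act as effectors of ERK. It lies at chr3:186046308-186110318 on the minus strand and shares 164 exon bases, 2.83% of its own, with DGKG on the same strand. ETV5 had 70.4, 69.5 and 66.4 CPM at 0 min, 72.2, 70.2 and 72.6 CPM at 10 min, 67.5, 66.5 and 65.1 CPM at 30 min, and 61.2, 57.5 and 62.7 CPM at 360 min. Only the 360 min libraries stood apart, below the other 9. The log2 fold change was -0.18 at 360 min against 0 min (SE 0.038, adjusted p = 0.00479), kept in 13 of 13 alternatives, and -0.05 at 30 min against 0 min (SE 0.0379, adjusted p = 0.774). Between 360 and 30 min it was -0.13 (SE 0.038, adjusted p = 0.0223), and missed the threshold once 30 min replicate 1 (0.0645), 30 min replicate 2 (0.0509) or 360 min replicate 2 (0.0708) was left out. ETV5 thus had no trough at 30 min that passed the test.

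**Figure D3:**
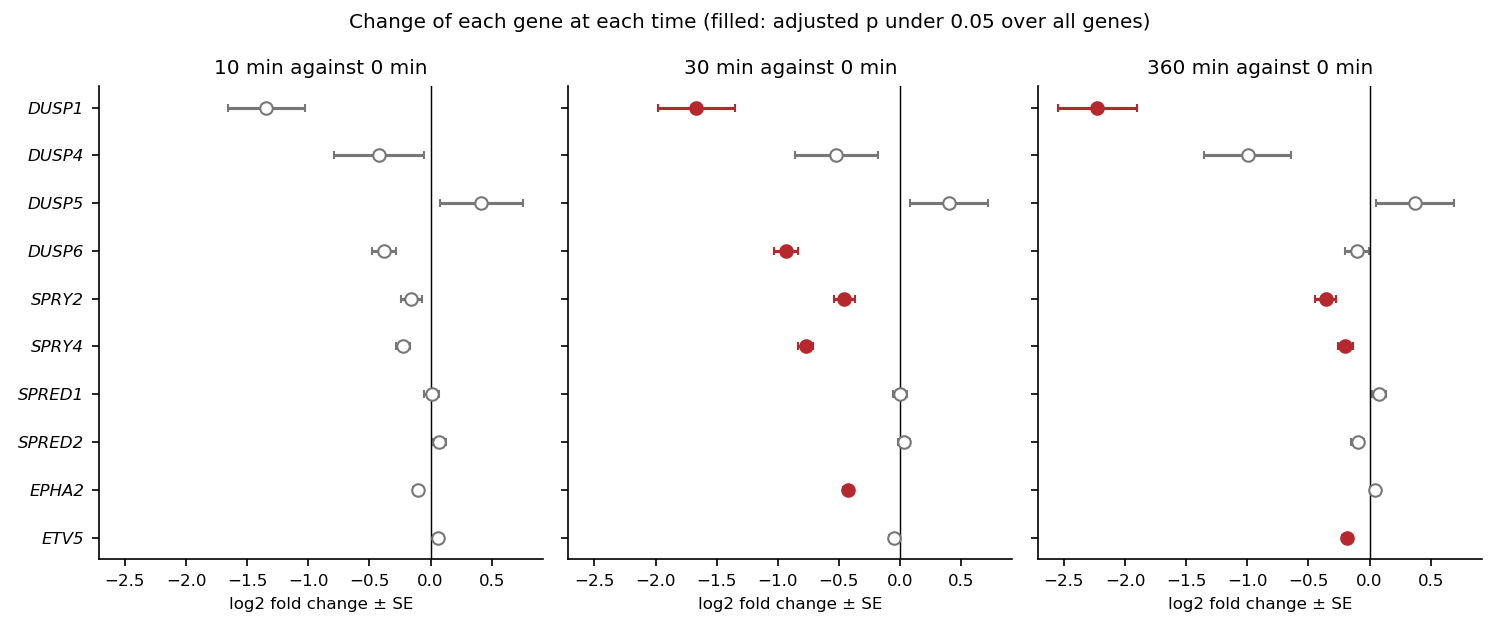
log2 fold change ± SE (edgeR, 12 libraries) of the 10 genes at 10, 30 and 360 min against 0 min; filled red points have an adjusted p under 0.05 over all genes and open points do not. At 30 min DUSP1, DUSP6, SPRY2, SPRY4 and EPHA2 are filled and lie between -1.67 and -0.43, and at 360 min DUSP6 and EPHA2 are open and near 0.

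Adjusted for gene length, as CPM per kb of exon, EPHA2 was the highest of the group at 0 min with 51.5 ± 1.14, then DUSP6 with 25.2 ± 4.34, DUSP1 with 20.8 ± 11.2, SPRED2 with 13.3 ± 0.807 and ETV5 with 11.9 ± 0.362 (SD, n = 3). SPRY4 had 5.75 ± 0.398, SPRY2 3.63 ± 0.106 and SPRED1 2.63 ± 0.115 CPM per kb, and DUSP5 and DUSP4 had 0.188 ± 0.0277 and 0.113 ± 0.0146. The spread of DUSP1 at 0 min covered the levels of its neighbours in this order, DUSP6 and SPRED2. At 30 min DUSP6 had 13.2 CPM per kb, near SPRED2, and at 360 min DUSP1 had 4.45, below SPRY4 with 5.01.

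Among the other genes of the pathway, those called at 30 min were ERK-responsive genes and inhibitors, all of them lower. Of 97 genes in 8 lists of other MAP kinase phosphatases, other inhibitors, other ERK-responsive genes, the RAS-ERK cascade, growth factor receptors and ligands, Eph receptors with ephrins, and JNK and p38 kinases, 77 were tested. At 30 min against 0 min, 6 of the 77 were lower and 0 higher, 7.79% beside the 0.765% of all genes called. An unadjusted p under 0.05 was found for 14 of the 77, 3 of them with higher levels, and for 1652 of the 17779 tested genes. The 6 called genes were IER3, FOS, EGR1 and MCL1 among the 9 tested ERK-responsive genes (median log2 fold change -0.39) and SPRY1 and ERRFI1 among the 10 tested inhibitors (median 0.02). None of the 22 genes of the RAS-ERK cascade was called at 30 min (median log2 fold change 8.03e-04), where 0.765% of all genes were, a share that gives less than 1 gene in a list of this size. The lists were chosen with results of these libraries known.

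IER3, a short-lived early response protein, had 143, 134 and 155 CPM at 0 min, 101, 99.4 and 99.8 CPM at 10 min, 54, 58.1 and 50.3 CPM at 30 min, and 141, 141 and 158 CPM at 360 min. Its 10 and 30 min libraries were below all libraries of 0 and 360 min. Its log2 fold change was -1.41 at 30 min against 0 min (SE 0.0634, adjusted p = 1.45e-07). At 10 min it was the 1 gene of the 77 that was called (-0.53, SE 0.0626, adjusted p = 0.0133). This call was lost in 3 of 13 alternatives, among them those without 10 min replicate 1 (0.0559) or 3 (0.0645). The 10 min change of IER3 was -0.51 with 0 min replicate 1 as the lone untreated library. Its 3 untreated libraries lay close together, unlike those of FOS and EGR1, whose changes at 30 min were -4.82 (SE 0.638, adjusted p = 0.00263) and -2.15 (SE 0.345, adjusted p = 0.00952). With 0 min replicate 1 as the lone untreated library, these were -2.24 for FOS and -1.06 for EGR1. The 30 min call of EGR1 was lost in 4 of 13 alternatives. These were the lone untreated library, only the groups compared (adjusted p = 0.0797), and the fits without 30 min replicate 1 (0.0614) or 3 (0.0569).

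SPRY1, MCL1 and ERRFI1 were chosen for description after their values were seen. SPRY1, another Sprouty gene, had 23, 25 and 24.6 CPM at 0 min, 22.1, 21 and 18.6 CPM at 10 min, 14.2, 15.7 and 16 CPM at 30 min, and 24.5, 22.6 and 24.9 CPM at 360 min. As with SPRY4, its 30 min libraries were below all others and the 0 and 360 min libraries overlapped. Its log2 fold change was -0.67 at 30 min against 0 min (SE 0.0712, adjusted p = 5.74e-04) and 0.66 at 360 min against 30 min (SE 0.0711, adjusted p = 3.52e-05). ERRFI1, an inhibitor of the EGF receptor, was lower at 30 min (-0.47, SE 0.0596, adjusted p = 0.00234). Unlike SPRY1, it was lower at 360 min against 0 min as well (-0.52, SE 0.0596, adjusted p = 8.32e-05). MCL1, a survival factor of the BCL2 family, was lower at 30 min by -0.39 (adjusted p = 0.00904). The MCL1 call was lost without 30 min replicate 3 (0.0609) and with only the groups compared (0.0877). With 0 min replicate 1 as the lone untreated library, the 30 min changes were -0.20 for MCL1 and -0.41 for ERRFI1. Of the 13 alternatives at 30 min, the MCL1 call held in 10 and the ERRFI1 call in 12.

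At 360 min against 0 min, 10 of the 77 were higher and 13 lower, 29.9% against the 18.1% of all genes called. KLB, the co-receptor for FGF19 and FGF21, was 59.9 ± 3.4 CPM at 360 min against 41.7 ± 0.68 CPM at 0 min (log2 fold change 0.52, SE 0.0417, adjusted p = 5.82e-06), the largest of the called rises in the lists. SOS1, an exchange factor that loads RAS, was 129 ± 2.3 CPM against 95.9 ± 3.4 CPM (0.43, adjusted p = 3.85e-05), and LRIG1, which restrains ERBB receptors, was 63.9 ± 2.5 CPM against 50 ± 1.9 CPM (0.35, adjusted p = 9.80e-05). Among the 10 tested receptors, EGFR, FGFR1 and KLB were higher and ERBB2, ERBB3, IGF1R and FGFR3 lower; EGFR (0.33) was called in 5 of 13 alternatives only, with an adjusted p of up to 0.165 without 360 min replicate 2. Among the ERK-responsive genes 5 were lower: FOS (-5.42, adjusted p = 1.55e-04), EGR1 (-1.76, adjusted p = 0.00313), MYC, CCND1 and ETV4. With 0 min replicate 1 as the lone untreated library, FOS stood at -2.78 and EGR1 at -0.67, where its call was lost (adjusted p = 0.227).

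ETV4, the PEA3-group partner of ETV5, was 319 ± 7.1 CPM at 360 min against 362 ± 6.5 CPM at 0 min, a log2 fold change of -0.18 (SE 0.0299, adjusted p = 0.00105) beside the -0.18 of ETV5. The cyclin gene CCND1 was 198 ± 7.3 CPM at 360 min against 254 ± 7.6 CPM at 0 min (-0.36, adjusted p = 3.25e-05), and MYC was 105 ± 2.1 CPM against 136 ± 12 CPM (-0.38, adjusted p = 2.03e-04; -0.24 with 0 min replicate 1 as the lone untreated library). Of the other MAP kinase phosphatases, 5 of 6 were tested and DUSP16, a phosphatase of JNK and p38, was the 1 called at 360 min (0.18, adjusted p = 0.017), a call lost without a filter (0.0575) and without 0 min replicate 1 (0.0768), 360 min replicate 1 (0.0629) or 360 min replicate 2 (0.0789). DUSP9, an ERK phosphatase, was the most abundant of them with 409 ± 12 CPM at 0 min. At 360 min against 30 min, 21 of the 77 were higher and 15 lower, 46.8% against 22.7% of all genes.

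**Figure D4:**
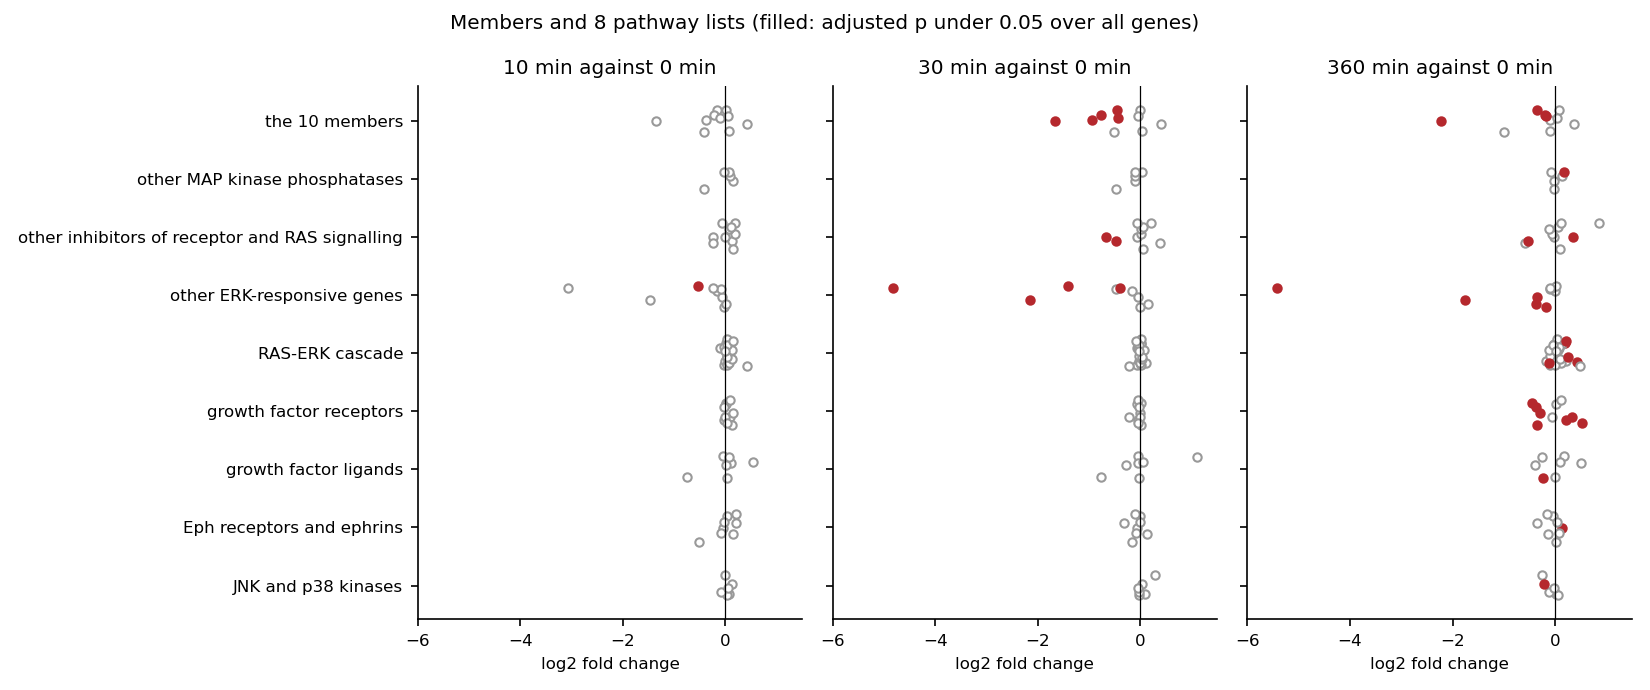
log2 fold change of every tested gene of the 8 pathway lists and of the 10 genes described here (top line, labelled as members) at 10, 30 and 360 min against 0 min; each point is 1 gene and filled red points have an adjusted p under 0.05 over all genes. At 30 min the filled points of the lists are all to the left of 0, in the other inhibitors and other ERK-responsive genes, and at 360 min they lie on both sides.

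The gene with the most similar course was sought for each of the 10 by Pearson's r of log2 CPM over the 12 libraries, among 12428 genes. The highest value among so many genes is a description of likeness, with points that share groups, and carries no test. DUSP1 was most like KLF6, an immediate-early zinc-finger factor (r = 0.99), which averaged 88.2 ± 22, 59.1 ± 0.73, 53 ± 2.6 and 47.2 ± 0.98 CPM at 0, 10, 30 and 360 min. SPRY4 was most like IER3 (r = 0.941) and DUSP6 most like the overlapping AC024909.1 (r = 0.985). EPHA2 was most like GDF15, a stress-responsive secreted factor (r = 0.979), with 119 ± 5.8, 109 ± 5.2, 77.4 ± 2.6 and 130 ± 3 CPM at the 4 times. The nearest genes of ETV5, SPRED2, SPRY2 and SPRED1 were SHB (0.964), PLEKHB1 (0.963), KLHL42 (0.89) and FBXL19-AS1 (0.848), and those of DUSP4 and DUSP5, at under 1 CPM, were PSMD10 (0.91) and CALML4 (0.873). Overlapping gene models on the same strand share 82.9% of the exon bases of CALML4 and 49.9% of those of SHB. On the opposite strand, PIAS1 shares 64.7% of the exon bases of CALML4 and IER3-AS1 shares 26.5% of those of IER3. The counts of CALML4 and SHB are therefore uncertain, as are those of IER3 because the use of strand in counting is not given.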

How the data were processed

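Poly(dT)-selected RNA of 12 HepG2 libraries was sequenced, and the authors deposited unnormalized read counts, as whole numbers, for each gene. HISAT2, DESeq2 and GRCh38 are named, without roles, per the submitters' processing notes; how reads were counted, on which annotation and whether by strand, is not stated in the sources used here. Of the gene identifiers, 58394 of 60612 (96.3%) matched GENCODE 29, the source of positions and exon lengths.

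Counts were tested with edgeR 4.0.16 in R 4.3.3: filterByExpr by group (17779 genes), TMM scaling (factors 0.981 to 1.014), and a quasi-likelihood model of all 12 libraries with 1 coefficient per time and 8 residual degrees of freedom. Tests were two-sided, a call needed a Benjamini-Hochberg adjusted p under 0.05, and the test was checked on simulated data. CPM are TMM-scaled; the SE is the absolute log2 fold change over the square root of F. Floors cover counting error only. The common dispersion gave a biological coefficient of variation of 9.72%.

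The 10 genes and the pathway lists were chosen with earlier results of these data known. Genes named from the lists were, for each time against 0 min, up to 3 called with the largest change per direction; others are said to have been chosen after their values were seen, which also holds for the examples named at 360 min beyond KLB, SOS1, LRIG1, FOS, EGR1 and ERRFI1. Alternatives were DESeq2 1.42.0, other scaling, no filter, a replicate block, a mitochondrial-side term, only the groups compared, and single libraries left out or used alone.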

Additional observations from a re-analysis of the deposited data

Results flagged for a closer look

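The changes of 4 genes from 0 min differed between 360 min and 30 min, with the difference itself tested in edgeR as 360 min against 30 min over all genes. EPHA2 had log2 fold changes of 0.04 at 360 min and -0.43 at 30 min, a difference of 0.47 (SE 0.0387, adjusted p = 4.28e-06), with all 3 libraries at 360 min above all 3 at 30 min. DUSP6, with -0.10 at 360 min and -0.93 at 30 min, differed by 0.83 (SE 0.1, adjusted p = 8.49e-05), and SPRY4, with -0.20 at 360 min and -0.77 at 30 min, by 0.57 (SE 0.0601, adjusted p = 2.62e-05), both in 3 of 3 libraries. ETV5 went the other way, with -0.18 at 360 min and -0.05 at 30 min, a difference of -0.13 (SE 0.038, adjusted p = 0.0223) that was lost in 4 of 12 alternatives.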

How the results depend on the processing

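For DUSP6, SPRY4 and EPHA2 at 30 min against 0 min, and for DUSP1 and ETV5 at 360 min against 0 min, the call held in all 13 alternatives. The number of the 10 genes called at 10 min was 1 with DESeq2 and 0 to 2 with a library left out; at 30 min it was 3 with only the groups compared, 3 with 0 min replicate 1 as the lone untreated library and 3 to 5 with a library left out; at 360 min it was 2 with the lone library. That lone library turned DUSP6 at 360 min to 0.22. The other turns of direction were in genes whose reported values were near 0: SPRED1 without a filter (-0.00412 at 10 min; 0.0134 at 30 against 10 min), SPRED2 with the mitochondrial term (-0.00931 at 10 min, -0.00631 at 30 min, 0.00300 at 30 against 10 min) or the lone library (-0.00814 and -0.0521 at 10 and 30 min), and DUSP5 without a filter (0.00356 at 30 against 10 min) or with the mitochondrial term (0.115 at 30 against 10 min, 0.12 at 360 against 30 min). With a library left out, SPRED1 ran from -0.0212 to 0.0622 at 10 min, -0.0253 to 0.0361 at 30 min and -0.0589 to 0.0245 at 30 against 10 min, SPRED2 from -0.00732 to 0.0784 at 30 min, DUSP4 from -0.364 to 0.393 and DUSP5 from -0.372 to 0.301 at 30 against 10 min, and DUSP5 from -0.270 to 0.331 at 360 against 30 min. The cause was not tested. DUSP4 and DUSP5 had 9 to 63 and 14 to 62 counts per library.

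Of the 77 list genes, 8 were called at 10 min with DESeq2, 2 without a filter and 0 to 4 with a library left out, and 2 to 4 at 30 against 10 min with a library left out. Over all genes, 3 were called at 10 min, against 174 with DESeq2, 9 without a filter, 6 with the replicate block, 7 with only the groups compared, 10 with the lone library and 1 to 25 with a library left out. At 30 min 136 were called, against 271, 67 and 61 to 163 with DESeq2, only the groups compared and a library left out. At 360 min 3215 were called, against 2281 to 2714 with a library left out. At 30 against 10 min 102 were called, against 290 with DESeq2 and 39 to 83 with a library left out.

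Deviations of same-numbered libraries from their group means correlated weakly, at -0.0541 to 0.0991 over 18 pairs (median 0.0273). Libraries with different numbers correlated at -0.115 to 0.0923 over 36 pairs (median -0.0188). For 7 of 12 libraries, the best match at another time had the same number. No test of pairing was made. With the replicate block 0, 4, 4, 3 and 4 of the 10 genes were called at 10, 30 and 360 min against 0 min, 30 against 10 min and 360 against 30 min.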

Other observations

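SPRY4-AS1, transcribed from the opposite strand across the start of SPRY4 with 0 shared exon bases, had 1.53, 1.91 and 1.9 CPM at 0 min, 2.59, 2.54 and 2.83 CPM at 10 min, 1.84, 2.12 and 1.57 CPM at 30 min, and 1.47, 1.18 and 1.1 CPM at 360 min. It was highest in the 3 libraries at 10 min and lowest in those at 360 min. Its log2 fold change at 360 min against 30 min was -0.56 (SE 0.162, adjusted p = 0.0244 in edgeR), in the direction opposite to the 0.57 of SPRY4, and the call was lost in 6 of 12 alternatives, for instance without 30 min replicate 2 (adjusted p = 0.0953) or 360 min replicate 3 (0.0958).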
